A study of Homo sapiens with 18 samples.

Results

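Collagen genes encode the chains of the collagens, the triple-helical proteins of the extracellular matrix. They were taken as every row of the count table whose symbol is COL, a number, A and a number, which gave 44 of 43236 genes. NCI-H1693 is an established cell line of human non-small cell lung cancer, labelled as deficient in SMARCA4. The cells were kept in 50 nM PRT3789, which the series describes as a selective SMARCA2 degrader, or in DMSO as control, and RNA was taken after 6, 48 and 72 h with 3 libraries in each of the 6 groups. SWI/SNF complexes, which move nucleosomes, hold either SMARCA2 or SMARCA4 as their motor subunit, and the deficiency in SMARCA4 is shared by all groups, PRT3789 and DMSO alike. All libraries come from this single line, and no label states that replicates came from separate cultures, so the p-values measure only the spread between these libraries, which may be technical.

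Collagen chains wind into trimers of equal or different chains before they leave the cell, so most collagen types need the products of particular genes together. Fibril-forming collagens build the cables of connective tissue, type IV collagen forms the sheet-like network of the basement membrane under an epithelium, and other types form beaded filaments, decorate fibrils or anchor cells to the basement membrane. Carcinoma cells can make basement membrane collagen themselves, while fibroblasts make most of the fibrillar collagen of a tumour.

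Of the 44 collagen genes, 28 were detected, meaning at least 10 counts in all 3 libraries of some group; 31 passed at 5 counts and 22 at 20. The filter on low counts kept 29 for testing, the 28 detected and COL26A1. A gene that passed only through the group in which it was high had to differ, so the shares below are given as descriptions. Library totals ran from 23154484 to 31094797 counts, and collagens took 0.0307% to 0.0607% of them. All 6 epithelial markers (EPCAM, KRT7, KRT8, KRT18, KRT19 and CDH1) were present, and their summed level moved with treatment. It ran from 4136 to 4357 CPM (counts per 1e6 of the scaled library total) in PRT3789 libraries of 72 h and from 9161 to 9938 CPM in DMSO, from 4699 to 4929 CPM in PRT3789 and from 10238 to 11026 CPM in DMSO at 48 h, and from 8032 to 9109 CPM in PRT3789 and from 8677 to 10026 CPM in DMSO at 6 h. Of the 6, 1 was lower at 6 h, 5 at 48 h and 3 at 72 h. Of all genes tested, 3.04%, 20.9% and 22.0% were lower at these times. The part of these markers in the results below was not tested. Of 15 fibroblast markers, 7 stayed under 1 CPM in every library, among them THY1 and PRRX1, and DPT had no count in any library. LUM, FAP and TWIST1 were expressed throughout, and DCN, PDGFRA, PDGFRB, POSTN and FBN1 reached 1 CPM in at least 1 library. The 15 summed to between 126 and 133 CPM in PRT3789 libraries and between 129 and 136 CPM in DMSO libraries at 72 h. At 48 h they summed to between 97.0 and 111 CPM in PRT3789 and between 121 and 138 CPM in DMSO. At 6 h the sums were 136 to 168 CPM in PRT3789 and 141 to 167 CPM in DMSO. Of the 8 tested, 3 were higher and 3 lower at 72 h (21.3% and 22.0% of all genes tested). At 48 h 3 were higher and 2 lower (21.2% and 20.9%). Of 10 endothelial markers, 8 stayed under 1 CPM, PECAM1 and VWF among them, and CDH5 and ESAM did not. In bulk RNA, fewer cells of a kind and less RNA per cell cannot be told apart.

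In 6 libraries a set of keratins stood far above the rest. The basal keratins KRT5, KRT6A and KRT14, chosen after their values were seen, summed to between 16.7 and 37.7 CPM in PRT3789 6 h replicate 3, DMSO 48 h replicates 1 and 2, DMSO 72 h replicates 2 and 3 and PRT3789 72 h replicate 1, and to at most 1.78 CPM in the other 12. In the order of the labels these libraries hold places 6, 7, 8 and 14, 15, 16, so that neighbours, and libraries 8 places apart, share the excess across treatments. The labels do not say whether this order is that of handling. Fibroblast markers other than LUM, FAP and TWIST1 summed to 10.5, 13.5, 10.9 and 11.0 CPM at places 6, 7, 14 and 15. They summed to 2.65 and 4.44 CPM at places 8 and 16, and to between 2.53 and 6.40 CPM in the other 12 libraries. Whether this excess and that of the keratins are linked was not tested. The main counts of collagen genes called are therefore also given without the 6 libraries with basal keratins. This leaves 1 DMSO library at 48 h and at 72 h that is assumed to vary like the other groups. Counts of at least 2-fold changes and of lists of other genes are not given without them. A second such set was seen for SFTPA1 and SFTPA2, genes of surfactant proteins, also chosen after their values were seen. They summed to between 5.36 and 6.89 CPM in all 3 PRT3789 libraries of 6 h, PRT3789 48 h replicate 3 and DMSO 72 h replicates 1 and 2, at places 4, 5, 6 and 12, 13, 14, and to at most 0.0830 CPM in the other 12. Since it holds every PRT3789 library of 6 h, neither the 6 h comparison nor the change of effect from 6 to 48 h can be had without it.

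At 48 h, 9 collagen genes were higher and 9 lower in PRT3789 than in DMSO, and at 72 h 9 were higher and 8 lower (edgeR quasi-likelihood test, Benjamini-Hochberg adjusted p under 0.05 over all 16291 genes tested). The same 9 were higher at both times, COL3A1, COL4A3, COL4A5, COL4A6, COL5A2, COL6A2, COL8A1, COL9A3 and COL10A1. The 7 lower at both times were COL4A1, COL4A2, COL5A1, COL8A2, COL12A1, COL18A1 and COL28A1. COL9A2 and COL17A1 were lower at 48 h alone and COL23A1 at 72 h alone by these thresholds. At 48 h the called share was 62.1% of the tested collagen genes against 42.1% of all genes (21.2% higher and 20.9% lower), and at 72 h 58.6% against 43.4% (21.3% higher and 22.0% lower). At 6 h only COL27A1 was called, as lower, against 4.33% of all genes (1.28% higher and 3.04% lower).

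The changes of the called collagen genes ran in both directions. The median size of the log2 fold change of the tested collagen genes was 0.79 at 48 h and 0.98 at 72 h, beside 0.32 at both times over all genes, and the signed medians were -0.01 and -0.12, beside 0.01 and 0.01. At least 2-fold changes were called for 6 higher and 5 lower collagen genes at 48 h (4.38% and 6.71% of all genes) and for 7 higher and 5 lower at 72 h (5.30% and 7.49%). Without the 6 libraries with basal keratins, the count of higher genes stayed at 9 at both times, while 5 were lower at each. The calls that ended were those of COL8A2 and COL18A1 at both times, of COL9A2 and COL28A1 at 48 h, and of COL5A1 and COL23A1 at 72 h. COL17A1, not called at 72 h with all libraries, was among the lower genes there (log2 fold change -1.21). With the 6 libraries with surfactant counts left out, which leaves 1 DMSO library at 72 h, 9 were higher and 8 lower at 48 h, where the call of COL8A2 ended, and 9 and 7 at 72 h, where that of COL23A1 ended.

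**Figure D1:**
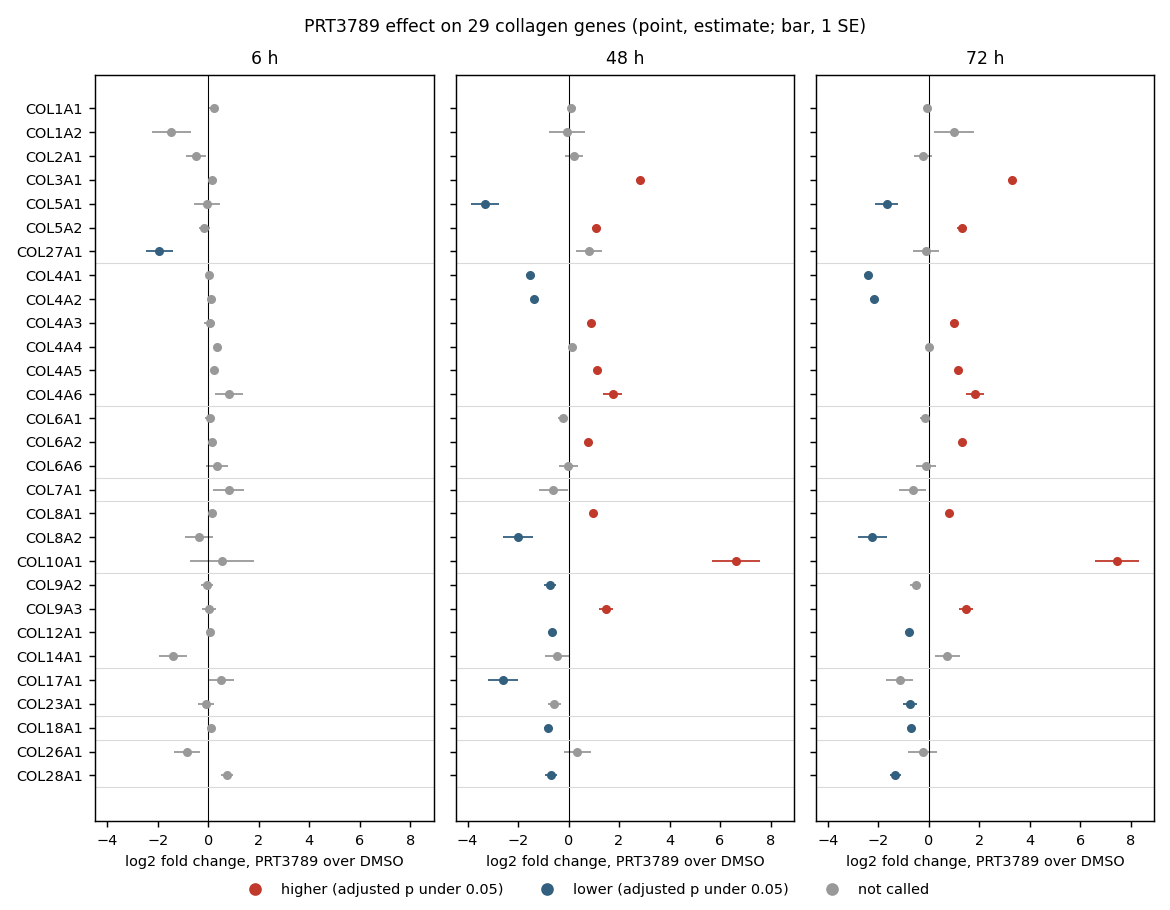
Log2 fold change of the 29 tested collagen genes, PRT3789 over DMSO, at 6, 48 and 72 h (x axis), with genes grouped by family down the y axis. Points are estimates and bars 1 SE; red genes were higher and blue genes lower at an adjusted p under 0.05, and grey ones were not called. At 6 h only COL27A1 is coloured, while 18 genes are at 48 h and 17 at 72 h; the estimate of COL10A1, whose DMSO libraries of 48 and 72 h had no count, rests on how the model treats counts of 0 and is not a bound.

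Type IV collagen has 6 chain genes, arranged in 3 head-to-head pairs, which did not share a direction. COL4A1 and COL4A2, whose chains form the network found in almost every basement membrane, fell; COL4A5 and COL4A6 rose; and of COL4A3 and COL4A4, COL4A3 rose and COL4A4 did not pass the test. The chains of COL4A3, COL4A4 and COL4A5 assemble together in the basement membranes of kidney and lung, and those of COL4A5 and COL4A6 in that of smooth muscle and skin. The stretches between the facing gene ends of each pair are shown because each lies between 2 genes that are read in opposite directions. They are given on the plus strand of GRCh38.p14 from RefSeq, at chr13:110307158-110307283 for COL4A1 and COL4A2, chr2:227164489-227164623 for COL4A4 and COL4A3, and chrX:108439588-108439837 for COL4A6 and COL4A5, the last being the 250 bases of a 379-base gap that lie next to COL4A5. Capitals mark matches, on either strand, to the CCAAT box (letters CCAAT) and the GC box (GGGCGG).
COL4A1/COL4A2: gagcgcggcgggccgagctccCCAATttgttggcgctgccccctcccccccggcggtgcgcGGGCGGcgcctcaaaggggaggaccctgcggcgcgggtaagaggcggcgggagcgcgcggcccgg
COL4A4/COL4A3: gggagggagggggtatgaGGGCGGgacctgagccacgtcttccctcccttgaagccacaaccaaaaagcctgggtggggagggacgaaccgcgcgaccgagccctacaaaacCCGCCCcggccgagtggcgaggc
COL4A6/COL4A5: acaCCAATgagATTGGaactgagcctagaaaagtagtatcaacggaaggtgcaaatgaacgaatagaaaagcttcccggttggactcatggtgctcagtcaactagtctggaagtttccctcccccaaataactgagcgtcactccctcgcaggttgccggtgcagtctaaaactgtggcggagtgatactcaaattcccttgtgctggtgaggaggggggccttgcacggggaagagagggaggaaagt

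The stretch of the pair that fell had 1 CCAAT box and 1 GC box and a GC content of 80.2%. That of COL4A4 and COL4A3 had 2 GC boxes and no CCAAT box (68.1% GC), and that of COL4A6 and COL4A5 had 2 CCAAT boxes and no GC box (51.2% GC). The last covers only 250 of the 379 bases of its gap, so its counts are not like those of the full gaps. A promoter window of COL4A6 that reaches beyond it held 3 CCAAT boxes and no GC box. A second window of COL4A6, wholly outside it, held 1 GC box and no CCAAT box. The promoter window of COL4A4 lies wholly outside the printed stretch of its pair and held neither box. None of the 3 printed stretches held a match, on either strand, to TGANTCA, the letters bound by AP-1 factors, or to CATTCC, those bound by TEAD factors. Among 34943 promoter windows of 300 bases in the RefSeq table, a CCAAT match was in 34.6%, a GC box in 44.9%, TGANTCA in 7.72% and CATTCC in 14.0%, and no motif contains another, although neighbouring matches can share letters. A window was found for 32 of the 44 collagen genes. Of the genes called at 72 h, 5 higher and 8 lower ones had a window; a GC box was in 3 of the 5 and 7 of the 8, and a CCAAT box in 3 of the 5 and 3 of the 8. A gene can have several windows and was counted if any of them held a match, so these counts per gene are not set against the shares per window. These are matches of letters, not sites of binding.

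COL4A2 (chromosome 13, 110307284 to 110513209) had the highest mean level per kb of transcript among collagen genes in every group but the PRT3789 group of 72 h. At 72 h it had 52.8, 53.0 and 46.7 CPM in PRT3789 libraries, against 226, 226 and 237 CPM in DMSO libraries. At 48 h the libraries had 81.0, 77.2 and 73.8 CPM in PRT3789, against 231, 201 and 163 CPM in DMSO. Every PRT3789 library lay below every DMSO library at both times. The gene was 2.56-fold lower at 48 h (log2 fold change -1.36 ± 0.15 SE, edgeR adjusted p = 9.01e-07) and 4.51-fold lower at 72 h (-2.17 ± 0.15, adjusted p = 2.84e-09).

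Its partner COL4A1 (chromosome 13, 110148963 to 110307157) went the same way. In PRT3789 it had 31.5, 32.4 and 30.8 CPM at 48 h, against 113, 85.9 and 76.7 CPM in DMSO. At 72 h the values were 20.8, 21.8 and 19.3 CPM in PRT3789, against 105, 112 and 112 CPM in DMSO. The groups did not overlap at either time, and the gene was 2.91-fold lower at 48 h (-1.54 ± 0.15, edgeR adjusted p = 2.69e-07) and 5.31-fold lower at 72 h (-2.41 ± 0.15, adjusted p = 1.16e-09). At 6 h the libraries of both genes overlapped, with 67.3 to 94.9 CPM of COL4A1 in PRT3789 and 68.5 to 98.3 CPM in DMSO. Both genes are also made by endothelial cells, whose markers summed to 1.70 CPM in each PRT3789 library of 72 h and between 9.27 and 9.82 CPM in DMSO, nearly all of it CDH5 and ESAM; their part in the result was not tested.

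COL4A5 (chromosome X, 108439838 to 108697545) had 45.8, 48.9 and 47.8 CPM in PRT3789 libraries of 48 h, against 18.7, 23.1 and 23.4 CPM in DMSO. By 72 h it had 53.3, 58.9 and 55.6 CPM in PRT3789, against 24.3, 26.3 and 24.8 CPM in DMSO. The groups lay apart at both times, and the gene rose 2.18-fold (1.13 ± 0.09, edgeR adjusted p = 2.44e-08) and 2.22-fold (1.15 ± 0.09, adjusted p = 1.32e-08). COL4A6 (chromosome X, 108155614 to 108439458), which starts beside it, was far fainter. It had 2.53, 1.24 and 2.49 CPM in PRT3789 at 48 h, against 0.857, 0.511 and 0.514 CPM in DMSO. Later, at 72 h, it had 2.46, 1.87 and 2.37 CPM in PRT3789, against 0.387, 0.710 and 0.764 CPM in DMSO. Its rise was 3.34-fold at 48 h (1.74 ± 0.36, adjusted p = 0.000899) and 3.58-fold after 72 h (1.84 ± 0.36, adjusted p = 0.000465), without overlap of the groups.

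The pair on chromosome 2 split. COL4A3 (227164624 to 227314792) rose 1.86-fold at 48 h (0.89 ± 0.17, edgeR adjusted p = 0.000327) and 1.98-fold after 72 h (0.99 ± 0.16, adjusted p = 8.14e-05), when it averaged 11.6 ± 2.05 CPM in PRT3789 and 5.84 ± 0.864 CPM in DMSO (SD, n = 3). COL4A4 (226967360 to 227164488) averaged 32.1 ± 3.01 CPM in PRT3789 and 32.3 ± 1.58 CPM in DMSO at 72 h, with log2 fold changes of 0.33, 0.14 and -0.01 at 6, 48 and 72 h (adjusted p 0.137, 0.299 and 0.953). COL4A4 was called at 6 h without DMSO 6 h replicate 1 (adjusted p = 0.0469) and without PRT3789 6 h replicate 3 (adjusted p = 0.0182), as higher. Whether the effects on COL4A3 and COL4A4 differ was not tested.

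The makeup of type IV transcripts, with counts taken per kb of each gene's canonical transcript, thereby differed between treatments. COL4A1 and COL4A2 together made up 58.0% to 60.2% of it in PRT3789 libraries of 48 h, against 83.6% to 89.5% in DMSO libraries. At 72 h the shares were 43.1% to 46.2% in PRT3789 and 86.4% to 87.3% in DMSO, and at 6 h 92.6% to 94.4% in PRT3789 and 93.0% to 95.4% in DMSO. Of all collagen counts, which follow length, both genes took 18.4% to 19.5% in PRT3789 and 58.5% to 59.4% in DMSO at 72 h. The collagen genes as a whole took 0.0374% to 0.0405% of a library's counts in PRT3789 at 72 h and 0.0558% to 0.0607% in DMSO.

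**Figure D2:**
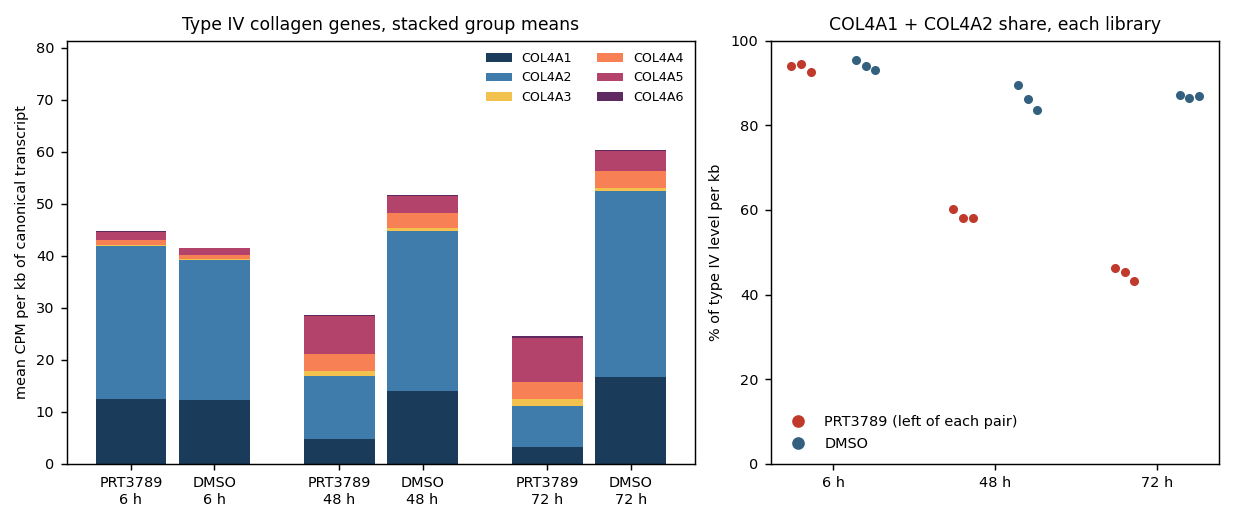
Left, mean level of the 6 type IV collagen genes stacked for each group, in CPM per kb of canonical transcript (y axis), with PRT3789 left of DMSO at each time. Right, share of COL4A1 and COL4A2 in that level in each library (y axis, % per kb), with red points for PRT3789 and blue for DMSO; at 72 h the PRT3789 libraries lie between 43.1% and 46.2% and the DMSO libraries between 86.4% and 87.3%.

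Of 11 fibril-forming collagen genes 7 were tested, of which 2 were higher and 1 lower at both 48 and 72 h, a share near those of all genes (42.1% and 43.4%). COL3A1 (chromosome 2, 188974373 to 189012746), the chain of type III collagen, had the largest rise among collagen genes at 1 CPM or more. Its libraries of 48 h held 16.2, 13.3 and 11.8 CPM in PRT3789, against 1.75, 2.11 and 1.91 CPM in DMSO. Those of 72 h held 21.1, 17.5 and 16.7 CPM in PRT3789, against 1.58, 1.79 and 2.26 CPM in DMSO. The lowest PRT3789 library was far above the highest DMSO library at both times, while at 6 h the groups overlapped. The rise was 7.12-fold at 48 h (2.83 ± 0.17, edgeR adjusted p = 5.26e-10) and 9.75-fold after 72 h (3.28 ± 0.17, adjusted p = 6.63e-11).

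COL5A2 (chromosome 2, 189031898 to 189441111) is the next collagen gene along the chromosome and encodes a chain of type V collagen, which starts and limits the growth of fibrils. It had 7.82, 8.29 and 7.92 CPM in PRT3789 at 48 h, against 3.80, 3.54 and 3.82 CPM in DMSO. By 72 h it had 10.1, 10.7 and 9.84 CPM in PRT3789, against 3.49, 3.81 and 4.99 CPM in DMSO. All PRT3789 libraries were above all DMSO libraries, and it rose 2.15-fold (adjusted p = 0.000166) and 2.49-fold (edgeR adjusted p = 1.94e-05).

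COL5A1 (chromosome 9, 134641803 to 134844843), whose chain joins that of COL5A2 in the type V trimer, moved the other way. In PRT3789 it had 0.285, 0.124 and 0.133 CPM at 48 h, against 2.35, 1.92 and 1.29 CPM in DMSO. At 72 h the libraries held 0.902, 0.442 and 0.243 CPM in PRT3789, against 1.13, 1.72 and 2.26 CPM in DMSO. No PRT3789 library reached a DMSO library, by a small margin at 72 h, and it was 9.96-fold lower at 48 h (-3.32 ± 0.55, edgeR adjusted p = 9.86e-05) and 3.20-fold lower at 72 h (-1.68 ± 0.47, adjusted p = 0.00707). In each group where only some libraries held basal keratins, its level was higher in the libraries with these keratins, as given below. When the 6 libraries that hold those were left out, it was still lower at 48 h (-2.80, adjusted p = 0.0106) and was not called at 72 h (-1.70, adjusted p = 0.102).

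COL1A1 (chromosome 17, 50184101 to 50201631), the main chain of type I collagen, averaged 21.2 ± 2.13 CPM in PRT3789 and 22.3 ± 1.59 CPM in DMSO at 72 h, without a call at any time (log2 fold changes 0.22, 0.12 and -0.07, edgeR adjusted p 0.663, 0.622 and 0.770). COL1A2, whose chain completes the usual type I trimer, was faint, with 0 to 1.84 CPM over all libraries. Per kb of transcript at 72 h, COL1A1 had 3.59 CPM in PRT3789 and 3.77 CPM in DMSO, and COL1A2 had 0.145 CPM in PRT3789 and 0.0715 CPM in DMSO. COL2A1, the cartilage fibril chain, stayed under 1 CPM and was not called.

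The beaded filaments of type VI collagen join chains of COL6A1, COL6A2 and a further gene. COL6A2 (chromosome 21, 46098112 to 46132848) had 41.7, 37.7 and 36.4 CPM in PRT3789 at 48 h, against 21.1, 25.7 and 20.4 CPM in DMSO. By 72 h it reached 53.1, 53.9 and 54.9 CPM in PRT3789, against 22.0, 21.3 and 22.7 CPM in DMSO. The groups did not overlap, and it rose 1.72-fold (0.78 ± 0.09, adjusted p = 2.28e-06) and 2.45-fold (1.29 ± 0.09, edgeR adjusted p = 3.57e-09). COL6A1, which lies near it on chromosome 21 (45981770 to 46005048), averaged 3.15 ± 0.632 CPM in PRT3789 and 3.48 ± 0.199 CPM in DMSO at 72 h, and did not pass the test (-0.14 ± 0.20, adjusted p = 0.608). COL6A3, the usual further chain, had at most 4 counts in a library and was not tested. COL6A6, an alternative to it, was not called and had 0.331 to 1.21 CPM over all libraries.

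Short-chain network collagens had 3 tested genes of 3, and all were called at both later times, beside 42.1% and 43.4% of all genes. The call of COL10A1, 1 of the 3, was bound to follow, as given below. COL8A1 (chromosome 3, 99638594 to 99799217), a chain of type VIII collagen of vessel walls and corneal basement membrane, rose 1.96-fold at 48 h (0.97 ± 0.11, adjusted p = 1.55e-06) and 1.75-fold after 72 h (0.81 ± 0.11, edgeR adjusted p = 1.09e-05), averaging 32.3 ± 1.59 CPM in PRT3789 and 18.5 ± 0.340 CPM in DMSO at 72 h. COL8A2 (chromosome 1, 36095239 to 36125222), the other chain of type VIII, was lower. It had 0.249, 0.331 and 0.133 CPM in PRT3789 at 48 h, against 0.857, 0.990 and 0.992 CPM in DMSO, and 0.416, 0.102 and 0.243 CPM in PRT3789 at 72 h, against 1.09, 0.934 and 1.60 CPM in DMSO. Its PRT3789 libraries stayed below those of DMSO, and it was 4.01-fold (-2.00 ± 0.58, adjusted p = 0.0106) and 4.71-fold lower (-2.24 ± 0.56, adjusted p = 0.00346). Without the 6 libraries with basal keratins it was not called at 48 h (adjusted p = 0.104) or at 72 h (adjusted p = 0.0718), nor at 48 h without PRT3789 replicate 3 (adjusted p = 0.0555) or without the 6 libraries with surfactant counts (adjusted p = 0.0904).

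COL10A1 (chromosome 6, 116118909 to 116217144) encodes the collagen of hypertrophic cartilage. It had no count in any DMSO library of 48 or 72 h. In PRT3789 it had 0.569, 0.456 and 0.332 CPM at 48 h and 0.972, 0.681 and 0.730 CPM at 72 h, from 37 and 69 counts over the 3 libraries. Against a floor of 3 counts over the 3 DMSO libraries, it was at least 12.8-fold higher at 48 h and at least 22.5-fold higher at 72 h. It passed the filter on low counts only through these PRT3789 groups, so that its being called as higher, though counted above, was bound to follow, and no p is given. At 6 h it had at most 1 count per library in either group. All these levels are under 1 CPM.

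Of the fibril-associated collagens, which bind the surface of fibrils, 4 of 10 were tested. COL12A1 (chromosome 6, 75084326 to 75206053) had the highest level per kb of them. It fell, by 1.59-fold at 48 h (-0.67 ± 0.13, adjusted p = 0.000423) and by 1.74-fold after 72 h (-0.80 ± 0.13, edgeR adjusted p = 6.71e-05), with 40.8 ± 5.70 CPM in PRT3789 and 71.0 ± 5.41 CPM in DMSO at 72 h. COL9A3 (chromosome 20, 62816213 to 62841159), a chain of type IX collagen, had 2.56, 2.86 and 2.12 CPM in PRT3789 at 48 h, against 0.969, 0.926 and 0.771 CPM in DMSO. At 72 h it had 2.12, 2.69 and 2.78 CPM in PRT3789, against 1.06, 0.747 and 0.897 CPM in DMSO. No overlap was seen, and it rose 2.81-fold (adjusted p = 0.000275) and 2.80-fold (edgeR adjusted p = 0.000237).

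COL9A2, a partner chain of type IX, was lower at 48 h (-0.75 ± 0.24, edgeR adjusted p = 0.0164) and not called at 72 h (-0.53 ± 0.23, adjusted p = 0.0774). Its 48 h call ended without DMSO replicate 2 (adjusted p = 0.0663) or PRT3789 replicate 2 (adjusted p = 0.0739). At 72 h it was called with that time fitted apart (adjusted p = 0.0124) and without PRT3789 6 h replicate 3 (adjusted p = 0.0233), with an unchanged log2 fold change of -0.53. COL9A1, the remaining chain of the type IX trimer, had at most 1 count in a library. COL14A1 had 0.112 to 0.946 CPM over all libraries and was not called, except at 72 h without DMSO replicate 3 (1.57, adjusted p = 0.0339).

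Among transmembrane collagens 2 of 4 were tested. COL17A1 (chromosome 10, 104031286 to 104085880), the collagen of hemidesmosomes, which tie basal epithelial cells to the basement membrane, had 0.569, 0.497 and 0.564 CPM in PRT3789 at 48 h, against 4.51, 3.74 and 1.62 CPM in DMSO. At 72 h it had 2.60, 0.613 and 0.417 CPM in PRT3789, against 1.20, 3.36 and 3.52 CPM in DMSO. The groups lay apart at 48 h and overlapped at 72 h through 1 library of each, and the gene was 5.99-fold lower at 48 h (-2.58 ± 0.60, edgeR adjusted p = 0.00229) and not called at 72 h (-1.15 ± 0.54, adjusted p = 0.0975). It was called at 72 h without PRT3789 replicate 1 (-2.37, adjusted p = 0.00183), without DMSO replicate 1 (-1.51, adjusted p = 0.0339) and without the 6 libraries with basal keratins (-1.21, adjusted p = 0.0404). COL23A1 was 1.68-fold lower at 72 h (-0.75 ± 0.26, adjusted p = 0.0282), a call that ended without any single library of the 72 h groups other than DMSO replicate 2 (adjusted p 0.0621 to 0.0947) and without the 6 libraries with surfactant counts (adjusted p = 0.121).

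COL18A1 (chromosome 21, 45405165 to 45513720), a basement membrane collagen whose end fragment is endostatin, was 1.75-fold lower at 48 h (-0.81 ± 0.15, adjusted p = 0.000293) and 1.65-fold lower at 72 h (-0.73 ± 0.15, edgeR adjusted p = 0.000594). It averaged 6.10 ± 0.342 CPM in PRT3789 and 10.1 ± 1.73 CPM in DMSO at 72 h. Without the 6 libraries with basal keratins it was -0.52 at 48 h (adjusted p = 0.0553) and -0.41 at 72 h (adjusted p = 0.149). COL28A1 (chromosome 7, 7338194 to 7543870) encodes a collagen with von Willebrand factor A domains. It had 0.854, 1.12 and 1.26 CPM in PRT3789 at 48 h, against 1.71, 1.60 and 1.95 CPM in DMSO, and 0.798, 0.578 and 0.730 CPM in PRT3789 at 72 h, against 1.97, 1.87 and 1.46 CPM in DMSO. PRT3789 libraries were all lower, and it was 1.62-fold lower at 48 h (-0.70 ± 0.22, adjusted p = 0.0188) and 2.51-fold lower at 72 h (-1.32 ± 0.23, adjusted p = 0.000165). The 48 h call ended without DMSO replicate 3 (adjusted p = 0.0655) or PRT3789 replicate 1 (adjusted p = 0.0844). COL7A1, the anchoring fibril collagen, had 0.0419 to 0.559 CPM over all libraries and was not called.

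**Figure D3:**
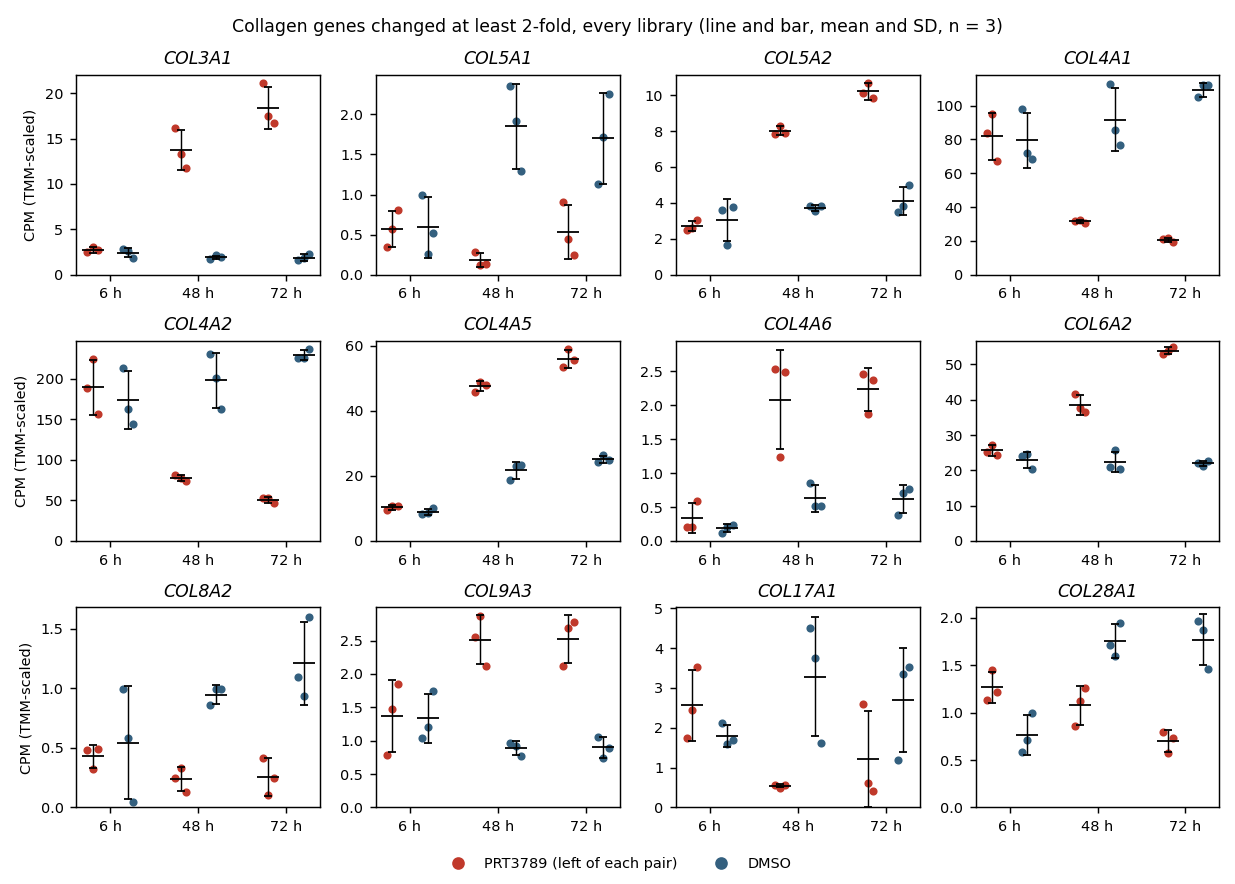
Level of the 12 collagen genes that changed at least 2-fold at 48 or 72 h and averaged at least 1 CPM in the higher group, in TMM-scaled CPM (y axis, from 0), at 6, 48 and 72 h (x axis), with PRT3789 in red left of DMSO in blue. Each point is a library, and lines with bars are the mean and SD of 3; COL3A1 reaches 16.7 to 21.1 CPM in PRT3789 at 72 h against 1.58 to 2.26 CPM in DMSO, and COL17A1 is the gene whose groups overlap at 72 h.

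Set in order of level per kb, the leading collagen genes of DMSO cells at 72 h were COL4A2 with 35.6 CPM per kb, COL4A1 with 16.8, COL6A2 with 6.39 and COL12A1 with 6.05. COL6A2 and COL12A1 overlapped there, at 6.19 to 6.60 and 5.71 to 6.58 CPM per kb. In PRT3789 cells at 72 h the order was COL6A2 with 15.7 CPM per kb, COL4A5 with 8.56, COL4A2 with 7.89 and COL8A1 with 5.86. COL4A5 and COL4A2 overlapped in these libraries, at 8.16 to 9.02 and 7.25 to 8.22 CPM per kb. COL1A1, COL12A1, COL3A1, COL4A4 and COL4A1 followed with 3.59, 3.48, 3.35, 3.21 and 3.15 CPM per kb, each overlapping its neighbour in that order.

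The time course was tested as the change of the PRT3789 effect between neighbouring times. Between 6 and 48 h the effect on 8 collagen genes went up and on 7 went down, 51.7% of those tested, against 19.2% of all genes (8.83% up and 10.4% down). At least 2-fold changes of effect were called up for 4 and down for 5 (2.42% and 4.06% of all genes). COL3A1 changed most among genes that went up and reached 5 CPM (2.67 ± 0.25, edgeR adjusted p = 8.08e-07), and COL4A1 (-1.58 ± 0.21, adjusted p = 3.21e-05) and COL4A2 (-1.48 ± 0.20, adjusted p = 5.07e-05) went down. Between 48 and 72 h no collagen gene was called by edgeR, as was none of all genes (0%), while 4 collagen genes had an unadjusted p under 0.05 and DESeq2 called 1 up and 2 down. For COL4A1 and COL4A2 the 72 h effect minus the 48 h effect was -0.87 ± 0.21 and -0.82 ± 0.20 (adjusted p 0.208 and 0.211).

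At 6 h, COL27A1 (chromosome 9, 114154098 to 114312511), a fibril-forming collagen of cartilage, had 0.103, 0.283 and 0.174 CPM in PRT3789, against 0.747, 0.502 and 0.946 CPM in DMSO. The groups lay apart, and it was 3.85-fold lower (-1.94 ± 0.53, edgeR adjusted p = 0.0471). The adjusted p was 0.055 to 0.191 when any single library of 6 h was left out and 0.153 with that time fitted apart. Leaving out single libraries of 48 or 72 h also ended the call in several cases, at adjusted p between 0.0524 and 0.0652. COL27A1 stayed called at 6 h under 9 of the 28 alternatives that tested it. It was not called at 48 h (0.79, adjusted p = 0.231) or 72 h (-0.11, adjusted p = 0.881). Over all 29 genes, 4 had an unadjusted p under 0.05 at 6 h.

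DMSO cells themselves differed between 48 h and 6 h. At 48 h 10 collagen genes were higher and 1 lower than at 6 h, against 37.2% called among all genes (17.1% higher and 20.1% lower), with a median log2 fold change of 0.47 beside 0.00 over all genes. COL4A4 was 3.80-fold higher at 48 h than at 6 h (1.92 ± 0.11, edgeR adjusted p = 2.11e-09), at 28.3 ± 1.43 CPM at 48 h and 7.46 ± 0.760 CPM at 6 h. COL4A3, COL4A5 and COL4A6 were 2.91-, 2.44- and 3.26-fold higher, so that 4 of the 6 type IV genes passed, while COL4A1 and COL4A2 did not (0.21 and 0.19, adjusted p 0.282 and 0.312). The other 6 higher genes were COL1A1, COL5A1, COL12A1, COL18A1, COL23A1 and COL28A1, and COL27A1 was lower. Without the 6 libraries with basal keratins, which leaves 1 DMSO library at 48 h, 5 were higher and 0 lower. Between 72 h and 48 h in DMSO no collagen gene was called by edgeR (1 with an unadjusted p under 0.05), against 0.540% of all genes.

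Faint collagen genes were checked for excess in neighbouring libraries. A gene was counted as faint at a mean of at most 2 CPM in every group, which held for 27 of the 44, of which 12 were tested; a library stood out when it had at least 10 counts and at least 3 times the median of the other libraries of its group. This found 4 faint genes. COL1A2 stood out in PRT3789 6 h replicate 1 (0.891 CPM, where the others had a median of 0.141) and in DMSO 72 h replicate 3 (0.831 and 0.129 CPM). COL8A2 stood out in DMSO 6 h replicate 1, COL14A1 in DMSO 72 h replicate 3 and COL26A1 in DMSO 6 h replicate 3. For COL1A2 the library just before PRT3789 6 h replicate 1 in the labels had 1.84 CPM, though of the other treatment. The library 8 places after that replicate had 0.895 CPM, and the others of its group, PRT3789 48 h, had 0.747 and 0.787 CPM. The library just after DMSO 72 h replicate 3 had 0.868 CPM, and that 8 places before it had 1.12 CPM. The others of their groups had 0.749 and 0.591 CPM (PRT3789 72 h) and 0.990 and 0.404 CPM (DMSO 48 h). For COL8A2 the library 8 places later had 0.992 CPM. The others of its group, DMSO 48 h, had 0.857 and 0.990 CPM. For COL14A1, at 0.665 CPM in the library that stood out, the library just after had 0.798 CPM. The others of its group, PRT3789 72 h, had 0.647 and 0.348 CPM. The library 8 places before had 0.559 CPM, and the others of its group, DMSO 48 h, had 0.575 and 0.514 CPM. For COL26A1, at 0.993 CPM, the library 8 places later had 0.580 CPM. The others of its group, PRT3789 48 h, had 0.285 and 0.332 CPM. Whether counts were shared between libraries was not tested.

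COL17A1, which is not faint by this rule, stood out in PRT3789 72 h replicate 1, the library at place 16, with 75 counts (2.60 CPM, where the others had a median of 0.515). The library just before it, DMSO 72 h replicate 3, had 3.52 CPM. Among the 29 tested genes, COL17A1 and COL5A1 had every library with basal keratins above every other library of its group in 4 of the 4 groups that hold both kinds. For COL17A1 the mean of the keratin-holding libraries and that of the others were 3.52 and 2.09 CPM within PRT3789 6 h, 4.12 and 1.62 CPM within DMSO 48 h, 2.60 and 0.515 CPM within PRT3789 72 h, and 3.44 and 1.20 CPM within DMSO 72 h. For COL5A1 they were 0.801 and 0.454, 2.13 and 1.29, 0.902 and 0.343, and 1.99 and 1.13 CPM in the same groups. Without those libraries, COL17A1 was still lower at 48 h (-1.56, edgeR adjusted p = 0.00633). COL18A1 and 4 other genes (COL1A2, COL4A6, COL6A1 and COL6A6) had all libraries with basal keratins above the others in 3 of the 4 groups. Each of these groups holds only 3 libraries, and whether such an order arose by chance was not tested. The share of all genes that show it was not computed.

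**Figure D4:**
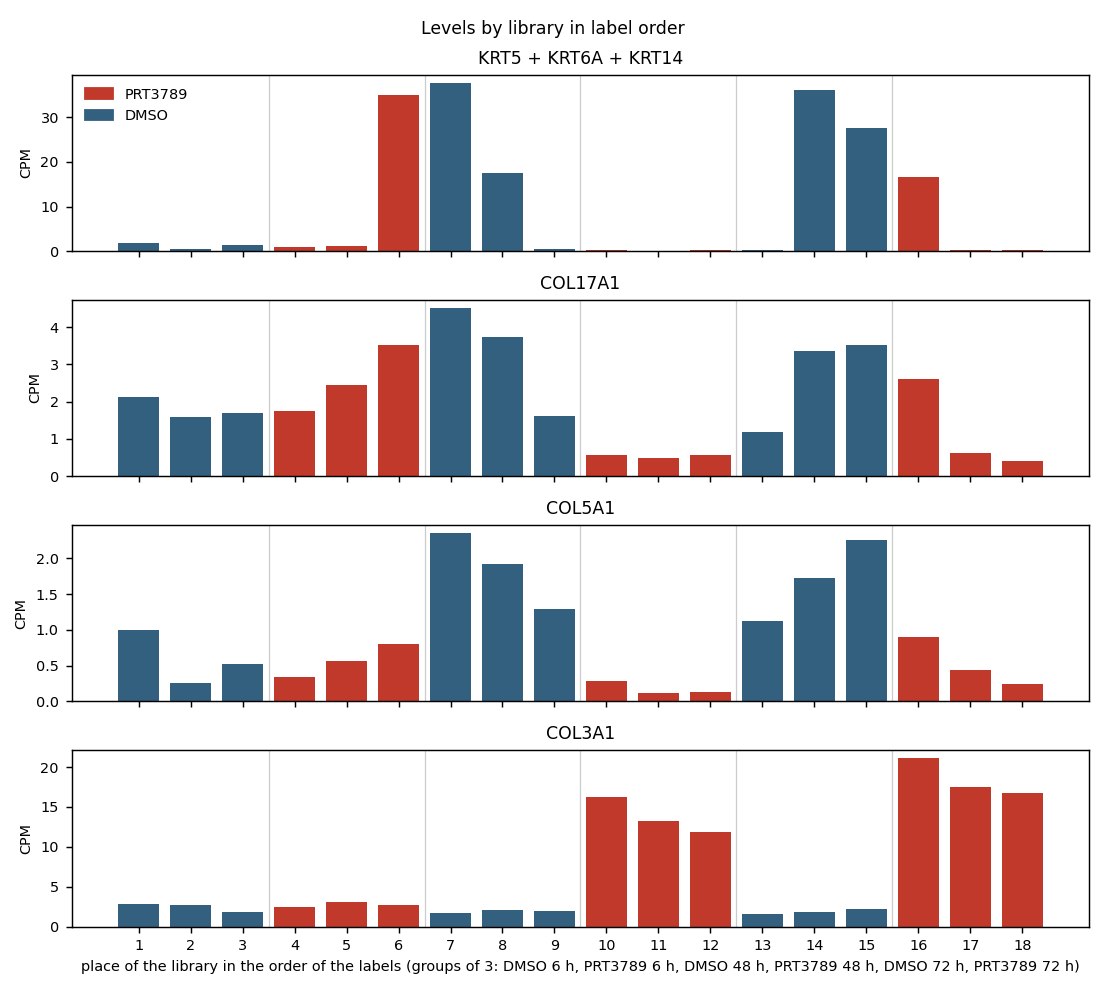
Level in CPM (y axis) in each of the 18 libraries in the order of the labels (x axis, place 1 to 18; red PRT3789, blue DMSO) of the summed basal keratins KRT5, KRT6A and KRT14, of COL17A1, of COL5A1 and of COL3A1. The keratins stand at 16.7 to 37.7 CPM at places 6 to 8 and 14 to 16 and at most 1.78 CPM elsewhere; COL17A1 at place 16 has 2.60 CPM beside 0.613 and 0.417 CPM in the other PRT3789 libraries of 72 h, and COL3A1 is high in the PRT3789 libraries of 48 and 72 h alone.

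The 15 collagen genes that were not tested all had some counts. They were COL5A3, COL6A3, COL6A5, COL9A1, COL11A1, COL11A2, COL13A1, COL15A1, COL16A1, COL19A1, COL20A1, COL21A1, COL22A1, COL24A1 and COL25A1. The highest count in a library was 10, of COL11A2, and the lowest maximum 1, of COL6A5 and COL9A1. They were not tested. At 72 h COL11A1 had 8, 4 and 6 counts in PRT3789 and 3, 1 and 1 in DMSO, and COL24A1 had 4, 3 and 9 counts in PRT3789 and 1, 1 and 2 in DMSO, without overlap of the groups; both were chosen after their values were seen.

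Genes that make, cut, link and bind collagen were counted from lists. Of 27 genes of synthesis and folding, all tested, 6 were higher and 11 lower at 72 h (5 and 11 at 48 h), with a median log2 fold change of -0.10 at 72 h beside 0.01 over all genes. Of all genes tested, 21.3% were higher and 22.0% lower at 72 h (21.2% and 20.9% at 48 h), which holds for this list and the 3 that follow. The prolyl 4-hydroxylases, which stabilise the triple helix, split: P4HA1 rose 1.76-fold (0.82 ± 0.07, edgeR adjusted p = 1.90e-08) to 178 ± 1.89 CPM in PRT3789, against 101 ± 2.26 CPM in DMSO, and P4HA2 fell 1.63-fold (-0.70 ± 0.07, adjusted p = 1.38e-07). TRAM2, which aids collagen synthesis at the endoplasmic reticulum, fell 2.62-fold (-1.39 ± 0.13, adjusted p = 1.25e-07) to 61.5 ± 2.38 CPM in PRT3789, against 161 ± 12.5 CPM in DMSO. It was also the single gene of the 4 lists called at 6 h (-0.50 ± 0.13, adjusted p = 0.0360), a call that ended without the 6 libraries with basal keratins (adjusted p = 0.214), with library totals (0.117), with that time fitted apart (0.468), and without DMSO replicate 1 (0.113), PRT3789 replicate 1 (0.0790) or PRT3789 replicate 3 (0.136) of 6 h. Leaving out single libraries of 48 or 72 h ended it in 8 more cases, at adjusted p between 0.0524 and 0.0629. COLGALT2, a collagen galactosyltransferase, rose 2.37-fold, and P3H3, of the prolyl 3-hydroxylase family, fell 1.97-fold.

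Of 13 genes of procollagen processing and cross-linking 11 were tested, and 6 were higher and 3 lower at 72 h (4 and 3 at 48 h), with a median log2 fold change of 0.66 at 72 h beside 0.01 over all genes. The lysyl oxidases LOXL2 and LOXL4, which cross-link collagen, and LOXL2 type IV collagen among it, fell. LOXL2 averaged 51.3 ± 4.17 CPM in PRT3789 and 311 ± 14.1 CPM in DMSO at 72 h, which is 6.07-fold lower (-2.60 ± 0.13, edgeR adjusted p = 6.12e-11), and LOXL4 averaged 0.207 ± 0.0367 CPM in PRT3789 and 1.95 ± 0.425 CPM in DMSO (-3.21 ± 0.29, adjusted p = 6.98e-08). BMP1, the protease that trims the end of fibrillar procollagens, fell 2.23-fold, while ADAMTS3, which trims the other end, rose 1.66-fold and TLL2, a relative of BMP1, rose 2.26-fold.

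Collagen receptors had 6 of 11 genes tested, of which 1 was higher and 2 lower at 72 h (1 and 0 at 48 h; median -0.21 at 72 h). The share called was 50% at 72 h, near the 43.4% of all genes, and 16.7% at 48 h, below their 42.1%. ITGA1, an integrin chain that binds type IV collagen by preference, rose 2.09-fold (1.06 ± 0.09, edgeR adjusted p = 3.25e-08) to 68.0 ± 5.20 CPM in PRT3789, against 32.6 ± 1.99 CPM in DMSO. ITGA2, which prefers fibrillar collagen, fell 1.48-fold, and MRC2, an endocytic collagen receptor, 1.19-fold (-0.25 ± 0.09, adjusted p = 0.0319). The MRC2 call ended with library totals (adjusted p = 0.118), without 4 of the 6 single libraries of 72 h, DMSO replicates 2 and 3 and PRT3789 replicates 1 and 2 (0.0648 to 0.129), and without either set of 6 libraries (0.328 for basal keratins and 0.227 for surfactant).

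Partners of type IV collagen in the basement membrane had 14 of 16 tested, with 2 higher and 10 lower at 72 h (3 and 7 at 48 h), and a median log2 fold change of -0.80 at 72 h. The laminin chain LAMB1 fell 2.56-fold (-1.35 ± 0.08, edgeR adjusted p = 4.02e-10), to 162 ± 8.06 CPM in PRT3789, against 415 ± 22.8 CPM in DMSO. LAMA3 and LAMB3, chains of the laminin of hemidesmosomes, fell 2.63- and 2.43-fold, and NID1, which bridges laminin and type IV collagen, fell 2.54-fold. LAMB2, the alternative to LAMB1, rose 2.16-fold (1.11 ± 0.10, adjusted p = 4.53e-08), to 206 ± 9.97 CPM in PRT3789, against 95.0 ± 1.93 CPM in DMSO.

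**Figure D5:**
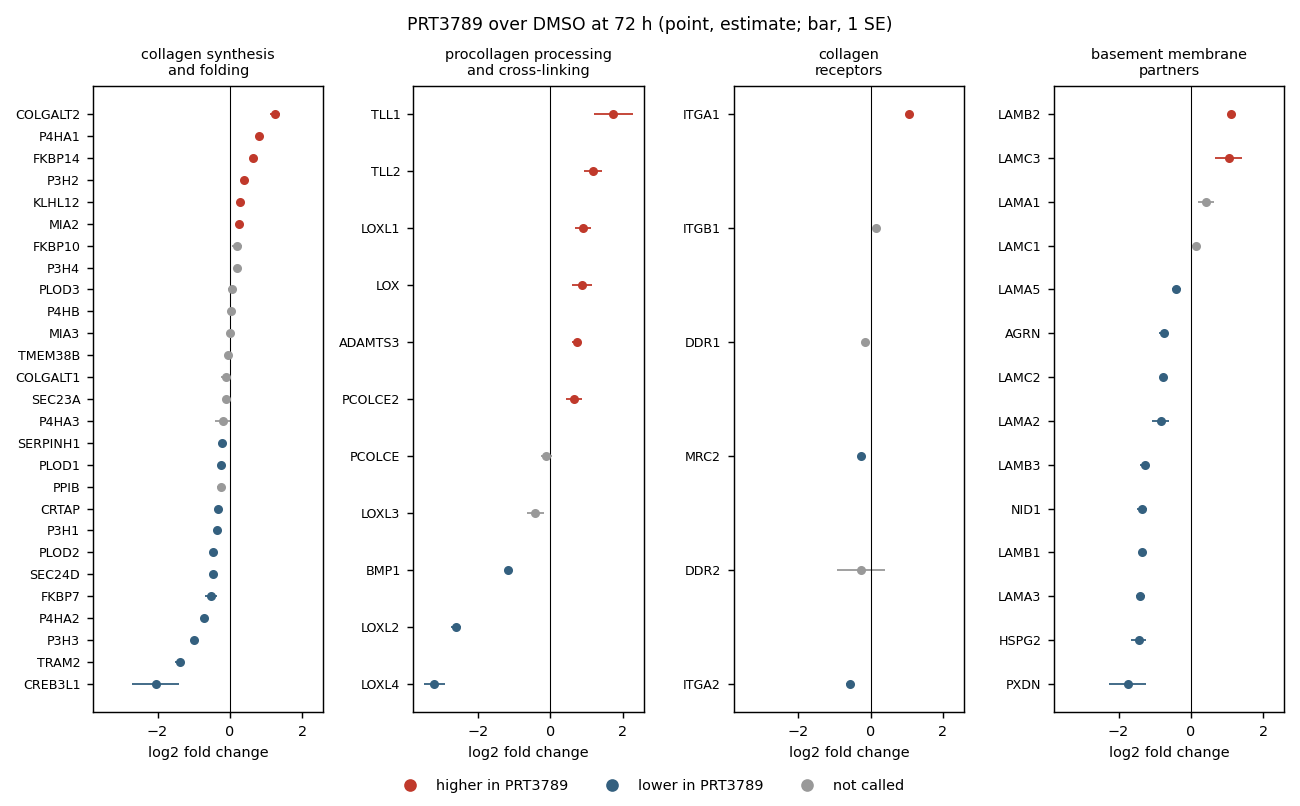
Log2 fold change at 72 h, PRT3789 over DMSO (x axis), of the tested genes of 4 lists (y axis): collagen synthesis and folding, procollagen processing and cross-linking, collagen receptors, and basement membrane partners. Points are estimates and bars 1 SE; red genes were higher, blue lower and grey not called. Basement membrane partners show 10 lower and 2 higher of 14, and LOXL4 and LOXL2 are the lowest of their list.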

How the data were processed

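Per the labels, polyA RNA went into strand-specific libraries, sequenced from both ends with 150 bp reads. Per the submitters' design text and processing notes, reads went through nf-core/rnaseq 3.17.0 (Trim Galore, STAR, RSEM) against GRCh38 with annotation release 110; the versions of single tools are not given in the sources used here. The authors deposited expected counts per gene symbol, as whole numbers. Per the file headers, its 18 columns match the labels, and no 2 libraries were identical.

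From these counts, 16291 genes passed filterByExpr with 6 groups. After TMM scaling, a single model with a mean per group was fitted to all 18 libraries with edgeR 4.0.16 under R 4.3.3. Its quasi-likelihood F test (robust, two-sided) gave p-values, which were adjusted by Benjamini-Hochberg over these genes, with calls under 0.05. SE is the log2 fold change divided by the root of F. Intervals of depth cover counting error only, since reads carry no molecular identifiers. CPM per kb used the GENCODE v44 canonical transcript; coordinates and sequences are RefSeq's for GRCh38.p14.

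Values of every library are given for genes changed at least 2-fold with at least 1 CPM in the higher group, and up to 5 members of each other list by p at 72 h. The genes, lists, naming rule and alternatives were chosen with earlier results of these data known, and the basal keratins and surfactant genes after their values were seen. Alternatives were DESeq2 1.42.0, limma 3.58.1 (voom), other scalings, filters and thresholds, replicate blocks, each time fitted apart and each library left out.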

Additional observations from a re-analysis of the deposited data

Results flagged for a closer look

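The effect of PRT3789, as a log2 fold change over DMSO, differed between 48 h and 6 h for 15 collagen genes by an interaction test (edgeR, adjusted p under 0.05 over all genes). The difference, 48 h minus 6 h, was 2.67 for COL3A1, 2.74 for COL27A1, 1.44 for COL9A3, 1.26 for COL5A2, 0.92 for COL4A5, 0.84 for COL4A3, 0.81 for COL8A1 and 0.63 for COL6A2. It was -3.26 for COL5A1, -3.09 for COL17A1, -1.58 for COL4A1, -1.48 for COL4A2, -1.44 for COL28A1, -0.90 for COL18A1 and -0.74 for COL12A1. Adjusted p ran from 8.08e-07 for COL3A1 to 0.0411 for COL4A3. Of these, 6 were called under every alternative tried on single genes. Without the 6 libraries with basal keratins, 4 higher and 3 lower were called, and the calls of COL4A3, COL5A1, COL5A2, COL8A1, COL12A1, COL18A1, COL27A1 and COL28A1 ended. COL27A1 was lower at 6 h and not called at 48 h, and without PRT3789 48 h replicate 2 its difference was not called (adjusted p = 0.0606).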

How the results depend on the processing

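Of the 18 collagen genes called at 48 h and the 17 called at 72 h, 14 and 13 were called under every alternative that tested them. Both numbers include COL10A1, which was tested under 28 alternatives at 48 h and 29 at 72 h, where the others had 30. No called effect on a collagen gene changed sign. The call at 6 h (1 lower) ended with library totals, a filter of 1 CPM in 3 libraries, limma-voom, each time fitted apart, the replicate block over all groups, an adjusted p under 0.01 and without the 6 libraries with basal keratins (0 each). Without those 6 libraries, an alternative added after seeing the data, 5 were lower at 48 h and 5 at 72 h, the change of effect between 6 and 48 h was called up in 4 and down in 3, and DMSO 48 h against 6 h had 5 higher and 0 lower. At least 2-fold, 5 were lower at 48 h and 5 at 72 h, and the effect went up in 4. At an adjusted p under 0.01 it went up in 5. For the change of effect between 48 and 72 h, DESeq2 called 1 up and 2 down, and with the trend on transcript length removed, also added later, 2 went down. With the 6 libraries with surfactant counts left out, added later too, the calls of COL8A2 at 48 h and COL23A1 at 72 h ended, and CREB3L1, a transcription factor of the synthesis list, had a log2 fold change of 0.27 at 72 h (adjusted p = 0.827) in place of -2.05 (adjusted p = 0.0174). The 1 lower gene of DMSO 48 h against 6 h was lost (0) without those, with library totals, no filter, the 1 CPM filter and an adjusted p under 0.01. Where no cause follows from fewer libraries or a stricter threshold, the cause was not tested.

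With each library left out in turn, higher and lower calls ran from 0 to 1 and 0 to 1 at 6 h, 9 to 9 and 8 to 9 at 48 h, and 9 to 10 and 7 to 9 at 72 h. The change of effect between 6 and 48 h ran from 6 to 8 up and 7 to 8 down, and DMSO 48 h against 6 h from 8 to 14 higher and 0 to 1 lower; the other 2 comparisons stayed at 0.

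Replicate numbers did not pair the libraries: over 9 pairs of the same number and time, deviations from the group means correlated between -0.24 and 0.34 across genes, and 3 of 9 correlated best with their own number. With the replicate block within each time, the change of effect went down in 6 genes in place of 7, COL17A1 being lost (adjusted p = 0.0644); with the block over all groups, COL27A1 was lost at 6 h. Counts of a few reads limit the 15 genes not tested and COL10A1, and the libraries of a group differed more at 6 h than at 72 h: the median SD of log2 CPM of 12 collagen genes was 0.174 in PRT3789 and 0.238 in DMSO at 6 h, and 0.0954 in PRT3789 and 0.0875 in DMSO at 72 h.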
